A study of Mus musculus with 6 samples.

Results

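Testes of Abcg8 knockout mice on chow were set against testes of wild-type mice on chow, on 4 of the 6 arrays of the series. Of the 33012 probes of the array, 15539 were kept because both arrays of one genotype, or of the other, gave a signal-to-noise of 3 or more. Of these, 13328 met that minimum on all 4 chow arrays, 1566 were kept through the knockout arrays only and 645 through the wild-type arrays only. The 8276 kept probes that carried 1 gene symbol stood for 8058 genes, and 7263 kept probes name no gene here.

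The tested group held 2 adult males labelled Abcg8 knockout and the other group 2 adult males labelled wild-type. All 4 were 10 to 12 weeks old, had the C57BL/6J background and ate rodent chow, with 1 array of whole-testis RNA per mouse. A further 2 Abcg8 knockout males, whose chow held 0.005% ezetimibe, a drug that blocks sterol uptake in the gut, entered the fit for its estimate of spread and are shown beside the results. Neither the labels nor the files say which part of Abcg8 was altered, and they name no litter or batch.

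Abcg8 and Abcg5 encode the half-transporters sterolin-2 and sterolin-1, which pair to pump cholesterol and plant sterols out of liver and gut cells. In the testis, Leydig cells make testosterone from cholesterol, Sertoli cells support the germ line, and spermatogonia pass through spermatocytes and round spermatids to elongating spermatids and sperm. Loss of the sterolin pump is known for a build-up of plant sterols in blood and tissues.

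The arrays carried the RNA of a testis. Every Leydig cell marker on the array (5 of 5), spermatocyte marker (3 of 3), round spermatid marker (3 of 3) and elongating spermatid marker (4 of 4) was detected on all 4 chow arrays, as were 5 of 9 Sertoli cell markers. Kdr was the 1 of 5 endothelial markers detected on all 4, and of 4 epididymis markers Lcn8 was detected on all 4 and the remaining 3 on none. Median raw signals were 611 and 515 on the knockout arrays, against 678 and 258 on the wild-type arrays, which makes wild-type replicate 2 the dim array. It also stood alone on the first principal component, which held 40.7% of the variance, at -49.9 against values of -1.59 to 18.7 on the other 5 arrays. A value without it is given wherever leaving it out ended a call, or turned the sign of a printed gene difference or of a printed list median over the kept genes, or moved one by over 1.5 times. The number of arrays limits the precision, and the median SE of a log2 difference was 0.138.

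Abcg8 itself had the largest difference among the 8058 genes, and it was brighter in the testes labelled knockout. Its probe (570984) gave a raw signal of 20013 and 22134 on the arrays labelled knockout, against 1715 and 569 on the arrays labelled wild-type. The signal-to-noise was 49.3 and 64.7 on the knockout-labelled arrays, against 4.88 and 5.28 on the wild-type-labelled arrays, so the transcript was detected in every testis. On the normalised log2 scale the probe read 14.04 and 14.35 in knockout-labelled testes, against 10.34 and 10.29 in wild-type-labelled testes. Abcg8 rose 14.7-fold, a log2 difference of 3.88 with an SE of 0.13 (limma adjusted p = 0.0131). Without wild-type replicate 2 the difference was 3.86 and no longer passed (limma adjusted p = 0.154). No source used here places this probe inside or outside the altered stretch, so it may check nothing about the labels. Groups are called knockout-labelled and wild-type-labelled from here on, and every direction rests on the labels.

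Abcg5, the partner gene, was not detected on any array, with a signal-to-noise of 0.70 and 1.36 on the knockout-labelled arrays, against 0.86 and 0.25 on the wild-type-labelled arrays. The start sites of both genes face away from each other on chromosome 17 with 109 bases between them in RefSeq's annotation of build GRCm38.p6. The stretch at chr17:84683012-84683120 (plus strand) is shown because this single short interval precedes both a gene with the largest difference and a partner that was not detected in either genotype.

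Abcg5 to Abcg8: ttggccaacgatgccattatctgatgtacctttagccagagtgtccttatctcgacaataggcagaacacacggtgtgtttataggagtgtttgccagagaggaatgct

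Beyond Abcg8, a single further probe passed the adjusted threshold. Probe 637213, which names no gene, was kept through the wild-type-labelled arrays only. It read 8.04 and 8.43 in knockout-labelled testes, where it was not detected, against 12.61 and 12.81 in wild-type-labelled testes. It fell by at least 22.2-fold (limma adjusted p = 0.0219, and 0.185 without wild-type replicate 2, where its log2 difference was -4.43), a bound set by the lowest detected signal or its own dim signal, whichever was higher on each array. These 2 probes are 0.0129% of the 15539 tested, and Abcg8 is 0.0124% of the 8058 genes. At an unadjusted limma p under 0.05 there were 361 genes with a higher signal in knockout-labelled testes (4.48%) and 326 with a lower one (4.05%). Without wild-type replicate 2 these were 251 (3.11%) and 165 (2.05%), with 0 genes called. Over all probes the same threshold gave 768 higher (4.94%) and 690 lower (4.44%), a split of 52.7% higher. When arrays were scaled to a common median, which moved the median difference of all probes to 0.11 log2 units, the split was 1033 higher and 344 lower, or 75.0% higher. Relative to the median of all probes under that scaling, list medians kept the sign given below, apart from the endothelial, fatty acid oxidation, eicosanoid, oxidative stress, ribosomal and ubiquitin ligase lists. On its own zero, without that subtraction, median scaling turned every negative list median positive except those of elongating spermatids, at -0.067, and of the chromosome 17 neighbours, at -0.008.

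Among genes detected on all 4 chow arrays, large differences were few once each wild-type array was left out in turn. Of the 8058 genes, 170 were at least 2-fold higher (2.11%) and 63 at least 2-fold lower (0.782%) in knockout-labelled testes. Without the dim array 78 of the 170 (0.968% of all genes) and 37 of the 63 (0.459%) kept that size, and 46 of the 170 dropped under 0.5 log2 units. Among the 7052 genes detected on all 4 chow arrays, 7 were at least 2-fold higher and 4 at least 2-fold lower with both wild-type arrays and without either one. The 4 lower ones were Ston1, Ctla2a, Slc3a1 and Entpd4. The 7 higher ones were Abcg8, Hba-a1, Wdfy1, Guca2a, Atrn, Rabep2 and Fh1. For the last 4 of these, knockout replicate 2 read well above knockout replicate 1. Rabep2, for example, which encodes an endosome fusion factor, read 13.63 and 16.23 in knockout-labelled testes, against 13.68 and 13.67 in wild-type-labelled testes. These 11 genes were listed by this count, chosen after its values were seen, and Slc3a1, Guca2a, Atrn, Rabep2 and Fh1 fall outside the rule for named genes.

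**Figure D1:**
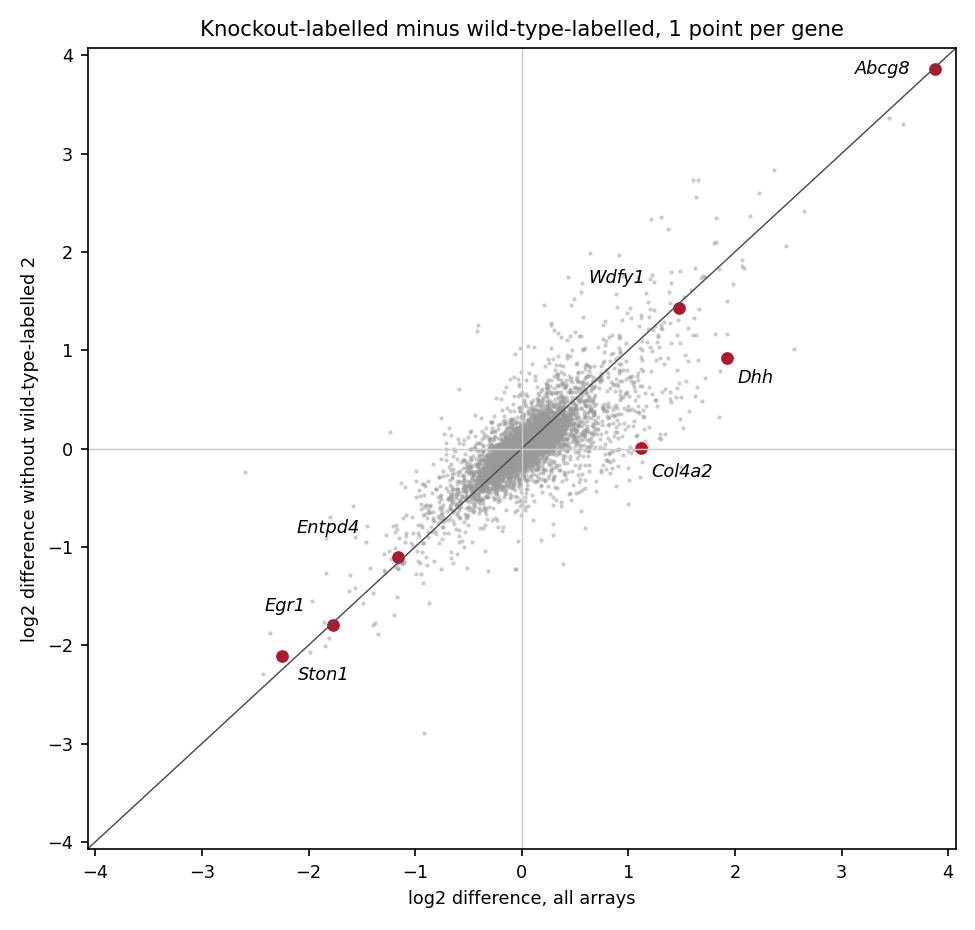
Each point is 1 of 8058 genes, with the log2 difference of knockout-labelled minus wild-type-labelled testes using all arrays on the horizontal axis and leaving out wild-type replicate 2 on the vertical axis. Abcg8, Ston1, Entpd4, Wdfy1 and Egr1 lie near the diagonal, while Col4a2 moves to 0.008 and Dhh to 0.92.

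The next genes are the 12 with the lowest p on each side among genes with a proper name, of which Abcg8 alone passed. Clone names and olfactory receptors, which are given with their family, were left out, so that Olfr700, Olfr1404, Olfr360, Olfr981 and AI661453 are not among the 12 higher genes despite a lower p than Efcab7. Each of the 24 was detected on both arrays of the genotype with the higher signal and had knockout-labelled and wild-type-labelled arrays that did not overlap, which held for 1830 genes on the higher side (22.7%) and 1754 on the lower side (21.8%). The adjusted p of the 23 that did not pass was between 0.134 and 0.353 with limma.

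Wdfy1 encodes an endosomal protein with a FYVE lipid-binding domain. It read 14.47 and 14.61 in knockout-labelled testes, against 13.11 and 13.02 in wild-type-labelled testes, a difference of 1.48 log2 units (SE 0.14, limma adjusted p = 0.18, 1.43 without the dim array). The groups were far apart for their spread. Tfeb, a transcription factor that drives lysosome genes, read 10.88 and 10.76 in knockout-labelled testes, against 10.12 and 10.05 in wild-type-labelled testes (difference 0.74, SE 0.10, 0.70 without the dim array). Ston1, which encodes an endocytic adaptor, read 10.46 and 10.65 in knockout-labelled testes, against 12.65 and 12.94 in wild-type-labelled testes. It differed by -2.25 (SE 0.17, limma adjusted p = 0.134, -2.11 without the dim array), while a dimmer second probe for Ston1 (781186) differed by -0.65. The 2 probes agree in direction and differ in size. Entpd4, a nucleotide-hydrolysing enzyme of the Golgi and lysosome, read 12.71 and 12.72 in knockout-labelled testes, against 13.83 and 13.94 in wild-type-labelled testes (difference -1.16, SE 0.09, limma adjusted p = 0.134, -1.11 without the dim array).

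Egfl7, a secreted factor of endothelial cells, read 10.41 and 10.61 in knockout-labelled testes, against 9.25 and 9.0 in wild-type-labelled testes, where 1 of 2 arrays detected it (difference 1.39, SE 0.13, limma adjusted p = 0.18, 1.28 without the dim array). Vcam1, an adhesion molecule bound by white blood cells, read 12.13 and 12.20 in knockout-labelled testes, against 12.76 and 12.81 in wild-type-labelled testes (difference -0.62, SE 0.09, -0.59 without the dim array). Neither passed. Cdc42ep1, an effector of the small GTPase Cdc42, was below detection on both wild-type-labelled arrays and at least 4.08-fold higher in knockout-labelled testes. Plekha7, a protein of the zonula adherens, was kept through the wild-type-labelled arrays only and was at least 3.62-fold lower in knockout-labelled testes. Afap1, an actin-binding protein, differed by -0.78 (SE 0.13).

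Stk32c, a serine/threonine kinase gene, was below detection on both wild-type-labelled arrays and at least 4.69-fold higher in knockout-labelled testes. Galnt7, which adds sugars to mucin-type proteins, was likewise at least 3.25-fold higher, and Tmem200a, a transmembrane protein gene, at least 3.05-fold higher. Since these 3 probes and Cdc42ep1 were kept through the knockout-labelled arrays only, the filter favoured a higher reading there. Gsdmd, whose product forms membrane pores in pyroptosis, was bright in every testis, at 14.25 and 14.29 in knockout-labelled testes, against 13.64 and 13.53 in wild-type-labelled testes (difference 0.68, SE 0.09). Efcab7, which takes part in hedgehog signalling at the primary cilium, differed by 0.83 (SE 0.12), and the zinc finger gene Zfp599 by 0.92 (SE 0.12). Zfp599, like Egfl7, was detected on 1 of the 2 wild-type-labelled arrays. Both were thus kept through the knockout-labelled arrays only, so the filter favoured a higher reading there.

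On the lower side, Ctla2a, a cysteine protease inhibitor gene, read 10.21 and 9.88 in knockout-labelled testes, against 11.29 and 11.36 in wild-type-labelled testes (difference -1.28, SE 0.14, limma adjusted p = 0.227). Ppp1r3c targets protein phosphatase 1 to glycogen. It read 8.83 and 9.42 in knockout-labelled testes, against 11.11 and 10.83 in wild-type-labelled testes, and was detected on 1 of the 2 knockout-labelled arrays. Riok2, a kinase of ribosome maturation, differed by -1.16 (SE 0.16) and was likewise detected on 1 of the 2 knockout-labelled arrays. The Ppp1r3c and Riok2 probes were kept through the wild-type-labelled arrays only, so the filter favoured a lower reading in knockout-labelled testes. Gemin8, a part of the SMN complex that assembles splicing particles, and Gid4, the substrate receptor of a ubiquitin ligase, were below detection in knockout-labelled testes, with bounds of at least 2.24-fold lower for Gemin8 and at least 1.79-fold lower for Gid4. The filter favoured that direction for Gemin8 and Gid4 too, as both were kept through the wild-type-labelled arrays only. Cdk19, a kinase of the Mediator complex, differed by -0.57 (SE 0.09), with 8.72 and 8.83 in knockout-labelled testes, against 9.35 and 9.34 in wild-type-labelled testes.

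Values of the knockout-labelled testes on ezetimibe stand beside these genes as a description, since they are set against the same wild-type-labelled arrays by which the genes were chosen. Wdfy1 read 14.48 and 14.15, Ston1 10.45 and 10.76, Entpd4 12.86 and 12.91 and Egfl7 10.42 and 10.36 on the ezetimibe arrays. Cdk19 read 9.60 and 9.58 there, above all 4 chow arrays.

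**Figure D2:**
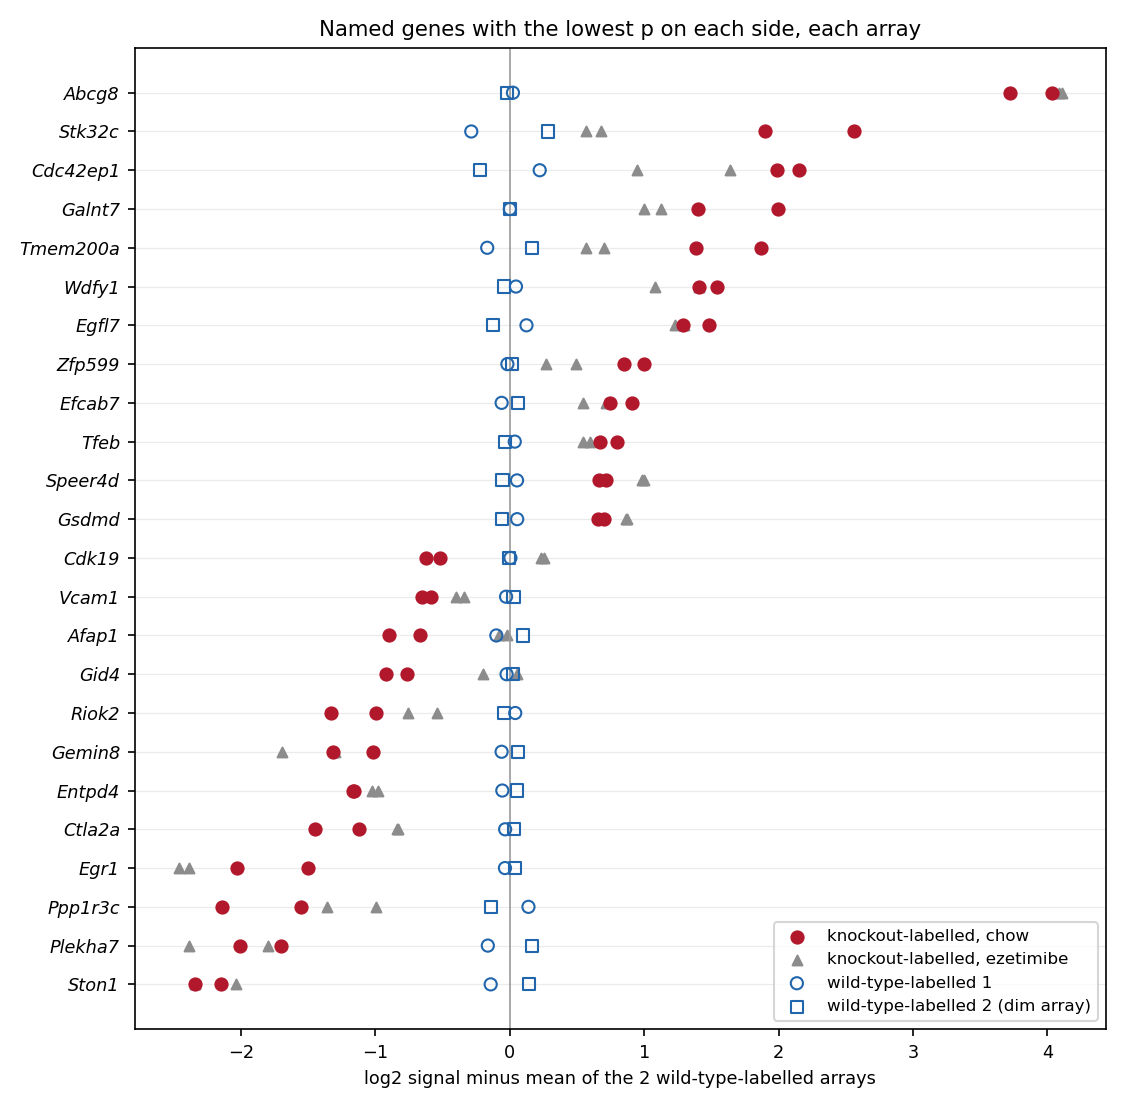
The horizontal axis gives each array's normalised log2 signal minus the mean of the 2 wild-type-labelled arrays, for the 12 named genes with the lowest p on each side, clone names and olfactory receptors left out. Filled circles are knockout-labelled testes on chow, triangles knockout-labelled testes on ezetimibe and open symbols wild-type-labelled testes. Abcg8 lies 3.88 units to the right, and the ezetimibe triangles of Cdk19 lie to the right of all its chow symbols.

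Most kept collagen chains read higher in knockout-labelled testes, though none passed the adjusted test. Collagens give the testis capsule, the tubule wall and vessels their strength, and their fibrillar forms come mainly from fibroblast-like cells. Of 23 listed collagen genes 21 were on the array and 16 kept, of which 12 lay above 0 (50.7% of all genes) and 4 below (49.3%), with a median difference of 0.31 log2 units, against 0.004 over all 8058 genes. An unadjusted p under 0.05 was reached by 5 on the higher side (4.48% of all genes) and 0 on the lower side (4.05%), and 0 passed the adjusted threshold. The 13 chains detected on all 4 arrays had 10 above 0 and a median of 0.20. Without the dim array the 16 had a median of 0.17, with 13 above 0, and under median scaling they lay 0.31 above the median of all probes. In whole testes, more cells of a type and more RNA per cell cannot be told apart.

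Col3a1, a fibrillar chain, read 15.05 and 14.70 in knockout-labelled testes, against 14.15 and 13.98 in wild-type-labelled testes (difference 0.81, SE 0.17, limma adjusted p = 0.413, 0.73 without the dim array). Both type I chains stood on the same side. Col1a2 read 14.20 and 14.07 in knockout-labelled testes, against 13.61 and 13.40 in wild-type-labelled testes (difference 0.63, SE 0.14). Col1a1 read 11.49 and 11.47 in knockout-labelled testes, against 10.74 and 10.06 in wild-type-labelled testes, a difference of 1.08 that was 0.74 without the dim array. Col6a1, a microfibril chain, differed by 0.49 (SE 0.12) and Col6a2, the fifth with an unadjusted p under 0.05, by 0.65 (SE 0.21). On the ezetimibe arrays Col3a1 read 13.67 and 13.93, below both wild-type-labelled arrays.

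Some of the largest collagen differences rested on the dim array. Col4a2, a basement membrane chain, read 12.90 and 12.71 in knockout-labelled testes, against 12.80 and 10.58 in wild-type-labelled testes, so that its difference of 1.12 became 0.008 without wild-type replicate 2. Col5a2 differed by 1.29 and by 0.11 without it. Both were chosen after their values were seen, as was Col6a2.

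Other matrix genes were described in 3 lists. Of 7 kept basement membrane genes 4 lay above 0 (median 0.15, and 0.058 without the dim array), with fibronectin, Fn1, at 0.38 (0.21 without the dim array) and the laminin chains Lamb2 and Lamb1 at 0.19 each. Of 15 other matrix genes 10 lay above 0 (median 0.09, and -0.0098 with 6 above 0 without the dim array). Serpinh1, the chaperone that folds collagen in the endoplasmic reticulum, differed by 0.46 (SE 0.12). It was not detected on all 4 chow arrays, so it was kept through 1 genotype's arrays only. Of 8 kept matrix proteases 5 lay above 0 (median 0.32, and 0.20 without the dim array), among them Mmp23, which was below detection on both wild-type-labelled arrays and at least 2.62-fold higher in knockout-labelled testes. Mmp9, a gelatinase, was at least 2.43-fold higher on the same basis, although its wild-type-labelled values of 5.89 and 8.05 were far apart. Mmp23 and Mmp9 were kept through the knockout-labelled arrays only, so the filter favoured a higher reading there. The 6 proteases and inhibitors detected on all 4 arrays had 3 above 0 and a median of 0.11. The protease inhibitor Timp2 differed by -0.27 (-0.17 without the dim array).

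A red cell gene differed in the same direction as the collagens. Hba-a1, which encodes alpha globin, read 18.29 and 17.26 in knockout-labelled testes, against 15.93 and 15.91 in wild-type-labelled testes (difference 1.85, SE 0.40, limma adjusted p = 0.413, 1.83 without the dim array), and 14.99 and 15.69 on the ezetimibe arrays. Both red cell markers on the array were detected on all 4 chow arrays, and their summed log2 level was 17.32 to 18.32 in knockout-labelled testes, against 16.01 to 16.06 in wild-type-labelled testes. Alas2, which starts haem synthesis in red cells, differed by 0.27 and by 0.057 without the dim array. The embryonic globin Hba-x was not detected in knockout-labelled testes and was at least 3.06-fold lower there. Its probe was kept through the wild-type-labelled arrays only, so the filter favoured that direction. Slc25a37, the mitochondrial iron importer, differed by -0.22 at its brighter probe and by -2.36 at a second probe (505312, limma adjusted p = 0.134), so its probes disagree in size. Of 4 kept red cell genes 2 thus lay above 0 and 2 below. Their part in the collagen values was not tested.

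Kallikreins split by member. These serine proteases are secreted by glands and, in mouse testis, by Leydig cells, and the Klk1b genes are close copies of one another, so their probes may share signal. Of 20 listed genes 12 were kept, all detected on all 4 arrays, with 5 above 0 and 7 below and a median of -0.038 (-0.025 without the dim array). The unadjusted threshold was reached by 4 higher and 2 lower members, against 8.53% of all genes in both directions together. Klk1b21 read 15.97 and 15.97 in knockout-labelled testes, against 15.46 and 15.38 in wild-type-labelled testes (difference 0.55, SE 0.09). Klk1b27 read 15.36 and 15.54 in knockout-labelled testes, against 14.71 and 14.17 in wild-type-labelled testes, a difference of 1.01 that was 0.73 without the dim array. Klk1b24 differed by 0.59 (SE 0.15). Klk1b1, chosen after its values were seen, differed by 1.03 (SE 0.28). Klk1b9, a bright member, stood on the other side with 15.98 and 15.86 in knockout-labelled testes, against 16.34 and 16.38 in wild-type-labelled testes (difference -0.44, SE 0.10). Klkb1, the plasma kallikrein, which is of another family despite its name and was also chosen after its values were seen, differed by -0.46. With ezetimibe Klk1b21 read 15.17 and 15.28 and Klk1b27 14.20 and 14.38, below or within the wild-type-labelled range.

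Speer4a, Speer4b and Speer4d read higher in knockout-labelled testes, and Speer4f1 and Speer3 differed little. Speer genes are a rodent family expressed in spermatogenic cells, clustered on chromosome 5. All 5 listed members were kept and detected on every chow array. Speer4d read 14.66 and 14.72 in knockout-labelled testes, against 14.06 and 13.95 in wild-type-labelled testes (difference 0.69, SE 0.09, limma adjusted p = 0.297, 0.64 without the dim array). Speer4b read 14.05 and 14.28 in knockout-labelled testes, against 13.37 and 13.14 in wild-type-labelled testes (difference 0.91, SE 0.14, limma adjusted p = 0.325). Speer4a read 13.49 and 13.67 in knockout-labelled testes, against 12.99 and 13.05 in wild-type-labelled testes (difference 0.56, SE 0.11, limma adjusted p = 0.381). For these 3 the groups did not overlap, and the difference kept its sign without the dim array. Both ezetimibe arrays read above both chow-fed knockout-labelled arrays for Speer4d, at 14.99 and 15.00, and for Speer4a, at 13.81 and 13.83. Speer4f1 differed by 0.14, with 0.32 without the dim array and -0.049 without wild-type replicate 1, and Speer3 by -0.094, with -0.059 without the dim array and 0.010 under median scaling. The upstream sequences of Speer4a, Speer4b and Speer4d are close copies (given next), and whether their probes share signal was not tested, so they are uncertain as 3 separate genes.

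The 250 bases before the start sites of Speer4a, Speer4b, Speer4d and Speer4f1 are shown because the first 3 had similar differences and the last did not. Capitals mark the longest run that Speer4a, Speer4b and Speer4d share. The run was sought in those 3 alone, and exact copies alone were marked. The Speer4f1 window opens with a near copy of the end of the run, and its edge cuts off the bases before that. Its lack of capitals is therefore no contrast with the first 3. The 4 windows come from RefSeq, build GRCm38.p6, and lie at chr5:26039506-26039755 (minus strand), chr5:27501393-27501642 (minus), chr5:15618849-15619098 (plus) and chr5:17475872-17476121 (plus), in the order given.

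Speer4a: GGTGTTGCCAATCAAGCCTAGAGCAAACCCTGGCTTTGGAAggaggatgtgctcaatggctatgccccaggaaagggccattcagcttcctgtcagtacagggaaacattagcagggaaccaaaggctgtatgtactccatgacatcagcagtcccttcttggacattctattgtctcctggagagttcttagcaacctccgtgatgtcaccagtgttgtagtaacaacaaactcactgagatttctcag
Speer4b: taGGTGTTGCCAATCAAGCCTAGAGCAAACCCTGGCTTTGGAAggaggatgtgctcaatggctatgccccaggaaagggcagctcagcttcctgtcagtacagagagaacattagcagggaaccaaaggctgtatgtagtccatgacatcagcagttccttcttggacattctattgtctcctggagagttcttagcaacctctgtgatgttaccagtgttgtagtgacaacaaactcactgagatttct
Speer4d: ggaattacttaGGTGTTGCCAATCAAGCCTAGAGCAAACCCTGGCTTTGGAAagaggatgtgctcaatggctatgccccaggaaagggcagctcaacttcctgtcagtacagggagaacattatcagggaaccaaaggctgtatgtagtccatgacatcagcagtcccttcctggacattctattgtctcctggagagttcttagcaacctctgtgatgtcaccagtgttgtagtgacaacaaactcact
Speer4f1: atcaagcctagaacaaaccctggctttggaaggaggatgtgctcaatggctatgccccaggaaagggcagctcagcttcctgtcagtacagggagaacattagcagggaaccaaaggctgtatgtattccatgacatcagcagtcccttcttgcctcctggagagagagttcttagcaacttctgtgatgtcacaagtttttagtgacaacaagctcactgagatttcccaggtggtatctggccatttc

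The shared run is 41 bases long, and on either strand it lies in 13 of the 32851 upstream windows of the table (0.0396%). Speer4a and Speer4b were identical at 96.4% of aligned bases, Speer4a and Speer4d at 95.8% and Speer4b and Speer4d at 97.1%. Speer4f1 was identical to these 3 at 92.2% to 95.4%, and Speer3 to all 4 at 77.8% to 81.0%. A matching stretch is a description of the sequence and not of a site.

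**Figure D3:**
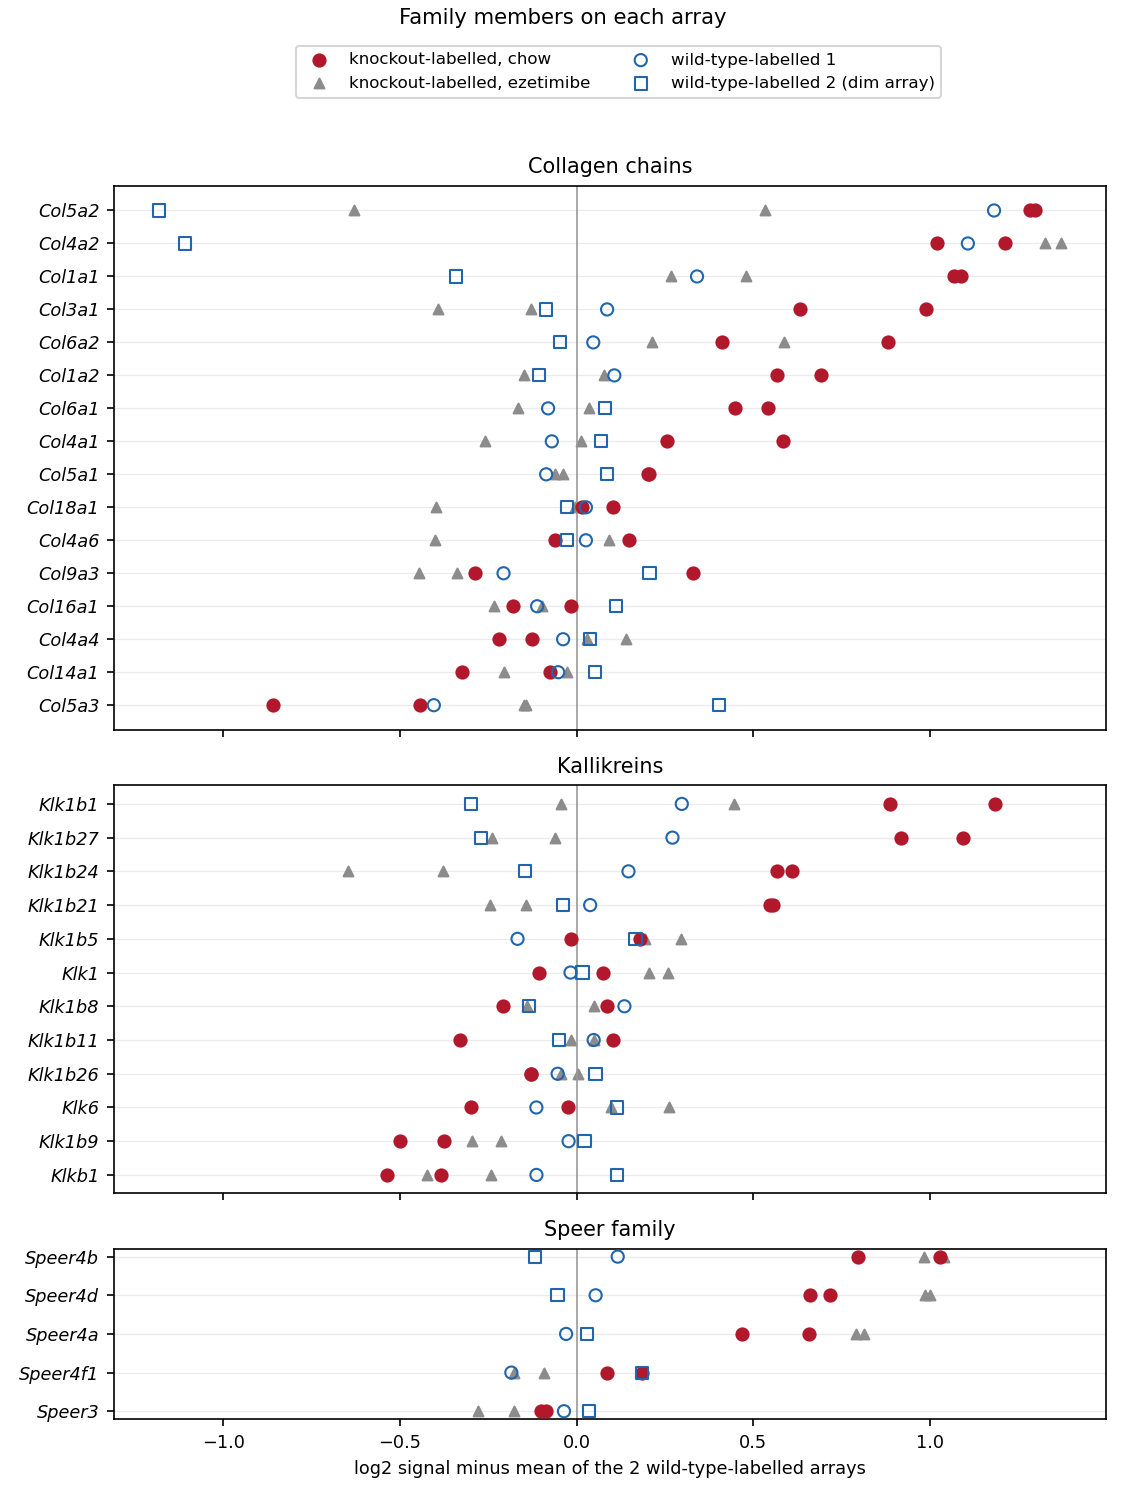
Each row is a kept collagen, kallikrein or Speer gene, and the horizontal axis gives each array's normalised log2 signal minus the mean of the 2 wild-type-labelled arrays. Filled circles are knockout-labelled testes on chow, triangles knockout-labelled testes on ezetimibe, open circles wild-type replicate 1 and squares wild-type replicate 2, which sits far left for Col5a2 and Col4a2.

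Spermatogonia genes had 9 of 13 kept members above 0, with a median of 0.18 and 0.098 without the dim array, and the 10 detected on all 4 arrays had a median of 0.041. Sohlh1, a transcription factor of differentiating spermatogonia, read 10.53 and 10.27 in knockout-labelled testes, against 9.51 and 8.77 in wild-type-labelled testes (difference 1.26, SE 0.41, 0.90 without the dim array). Sohlh1 was kept through the knockout-labelled arrays only, so the filter favoured a higher reading there. Sall4, a factor of the stem cell state, was below detection on both wild-type-labelled arrays and at least 3.48-fold higher in knockout-labelled testes, through which alone it was kept. Foxo1, which maintains spermatogonial stem cells, differed by -0.48 (SE 0.16), and Taf7l, a germ cell transcription factor subunit, by 0.32 (0.20 without the dim array).

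Lists of the meiotic and haploid stages had medians near or below 0. Of 27 spermatocyte genes 13 lay above 0, with a median of -0.011 (0.048 without the dim array). Ovol1, which lets germ cells pass pachytene, differed by 0.37 (SE 0.10), and Msh5, a factor of crossing over, by 0.36 (SE 0.14, 0.22 without the dim array). Of 25 round spermatid genes 13 lay above 0, with a median of 0.017, which was -0.028 with 12 above 0 without the dim array. Spaca1, an acrosome protein, at 0.31 (SE 0.10) stood against the spermatid genes Gsg1 at -0.29 and Tssk3, a testis-specific kinase, at -0.30 (-0.19 without the dim array). Of 21 elongating spermatid genes 6 lay above 0, with a median of -0.13. Without the dim array that list split 11 above and 10 below 0, with a median of 0.0011, so its low median rested on wild-type replicate 2. Odf3, a part of the sperm tail's outer dense fibres, read 17.003 and 17.001 in knockout-labelled testes, against 16.76 and 16.64 in wild-type-labelled testes (difference 0.30, SE 0.10). Spata18, which controls mitochondrial quality, differed by -0.23, the nuclear transition protein Tnp1 by 0.32 (0.15 without the dim array) and the sperm glycolytic enzyme Gapdhs by -0.23 (-0.13 without it).

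Sperm tail and dynein genes, 42 in all, had a median of -0.0093 (0.0084 without the dim array), with the axonemal dynein Dnah8 at 0.53 and the intraflagellar transport gene Ift80 at 0.31 as the 2 with an unadjusted p under 0.05.

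Somatic cells of the testis were likewise spread over both sides. Leydig cell and steroid genes, 10 kept and all detected on all 4 arrays, split 5 above and 5 below 0, with a median of 0.048 (0.015 without the dim array). Hsd3b6, a dehydrogenase of the testosterone pathway, read 12.04 and 12.03 in knockout-labelled testes, against 12.42 and 12.60 in wild-type-labelled testes (difference -0.48, SE 0.10, -0.38 without the dim array). Cyp11a1, which cuts the side chain of cholesterol as the entry to steroid synthesis, read 14.61 and 14.54 in knockout-labelled testes, against 14.25 and 14.00 in wild-type-labelled testes (difference 0.45, SE 0.14, 0.32 without the dim array). Its electron donor Fdx1 differed by 0.23 (0.15 without the dim array), and the prostaglandin D synthase Ptgds by -0.28. Steps of the same pathway thus gave values of opposite sign.

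Sertoli cell genes had 10 of 15 above 0, with a median of 0.068 and 0.096 without the dim array. Fshr, the receptor for follicle-stimulating hormone, read 10.32 and 10.72 in knockout-labelled testes, against 10.06 and 9.81 in wild-type-labelled testes (difference 0.59, SE 0.17, 0.47 without the dim array). Fshr is also on the list of genes near Abcg8 on chromosome 17. Dhh, a hedgehog ligand sent to Leydig and peritubular cells, differed by 1.93 (SE 0.67) and by 0.92 without the dim array, on which it read 7.32. Dhh was the 1 gene of this list kept through the knockout-labelled arrays only, so the filter favoured a higher reading there. Rhox8, an androgen-driven homeobox gene, differed by 0.20, and the iron carrier transferrin, Trf, by -0.55. The summed log2 level of the 5 Sertoli markers detected on all 4 chow arrays was 19.7 to 19.8 in knockout-labelled testes, against 19.6 on both wild-type-labelled arrays.

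Peritubular muscle genes, 8 kept, had 3 above 0 and a median of -0.025 (-0.015 without the dim array), with the actin gene Acta2 at 0.23 (0.14 without it). Endothelial genes had 6 of 10 above 0 (median 0.078, and -0.086 with 3 above 0 without the dim array), but 5 of the 10 were kept through the knockout-labelled arrays only, and of the 5 detected on all 4 arrays 2 lay above 0 (median -0.18). Ptprb, a phosphatase of vascular endothelium, differed by -0.43 (SE 0.16). Macrophage genes had 4 of 11 above 0, with a median of -0.019 (-0.082 without the dim array), the lysozyme gene Lyz1 at 0.41 (SE 0.12), Lyz2 at 0.26 and the complement gene C1qc at -0.19.

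Sterol genes other than Abcg8 gave 0 calls, and Tm7sf2 and Cyp27a1 had an unadjusted p under 0.05, a share near the 8.53% over all genes. Of 16 kept genes of cholesterol synthesis and uptake 4 lay above 0 and 12 below, with a median of -0.090 and -0.14 without the dim array. Under median scaling 4 of the 16 lay above the median of all probes. Tm7sf2, a sterol reductase of the last steps to cholesterol, read 12.67 and 12.71 in knockout-labelled testes, against 13.20 and 13.29 in wild-type-labelled testes (difference -0.55, SE 0.14, limma adjusted p = 0.444). The methyl oxidase Msmo1 differed by -0.45 (SE 0.20), the isoprenoid synthase Ggps1 by -0.21 and the mevalonate pathway kinase Pmvk by 0.25. The list of LXR targets and efflux genes kept 10, of which 4 lay above 0, Abcg8 included, with a median of -0.037 (-0.035 without the dim array). Cyp27a1, which turns cholesterol into 27-hydroxycholesterol, read 12.28 and 11.88 in knockout-labelled testes, against 12.52 and 12.57 in wild-type-labelled testes (difference -0.46, SE 0.17). The lipid carrier Apoe differed by 0.24, and by 0.070 without the dim array, and the desaturase Scd2 by -0.25.

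Fatty acid synthesis genes had 4 of 13 above 0, with a median of -0.091 and -0.15 without the dim array. Elovl2, which elongates the very long polyunsaturated fatty acids that spermatogenesis needs, read 9.44 and 9.08 in knockout-labelled testes, against 10.10 and 9.81 in wild-type-labelled testes (difference -0.69, SE 0.22, -0.86 without the dim array). The synthase Fasn differed by 0.27, and by 0.027 without the dim array, and Acss2, which makes acetyl-CoA, by 0.29. Fatty acid oxidation genes had 10 of 18 above 0 and a median of 0.0084 (-0.0052 without the dim array), with Hadh, an enzyme of the oxidation spiral, at 0.27. Among 9 eicosanoid genes 5 lay above 0, and the lipoxygenase Alox12 differed by -0.82 (SE 0.21).

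Immediate early genes, which respond within minutes to stimulation of a cell, were below 0 in 13 of 18 kept members, with a median of -0.095, and -0.084 without the dim array. Of the 12 detected on all 4 arrays 2 lay above 0. Egr1, a zinc finger transcription factor, was below detection on both knockout-labelled arrays, at least 3.40-fold lower than in wild-type-labelled testes (limma adjusted p = 0.228), and on the ezetimibe arrays it read 6.97 and 6.89, below all 4 chow arrays. The Egr1 probe was kept through the wild-type-labelled arrays only, so the filter favoured a lower reading in knockout-labelled testes. Zfp36, which destabilises inflammatory messages, differed by -1.22 (SE 0.48) and Maff, a small bZIP factor, by -0.51 (SE 0.14). Egr3 ran the other way, with 9.74 and 10.27 in knockout-labelled testes, against 9.11 and 8.17 in wild-type-labelled testes (difference 1.37, SE 0.38, 0.92 without the dim array). However, Egr3 was not detected on all 4 chow arrays, so it was kept through 1 genotype's arrays only.

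Junction genes had 2 of 13 above 0, with a median of -0.076 and 4 above 0 with a median of -0.029 without the dim array. Ocln, the tight junction protein occludin, was below detection on both knockout-labelled arrays, at least 2.95-fold lower than in wild-type-labelled testes (limma adjusted p = 0.413). The Ocln probe was kept through the wild-type-labelled arrays only, so the filter favoured a lower reading in knockout-labelled testes. The 12 junction genes detected on all 4 arrays had 2 above 0, a median of -0.074 and 0 at the unadjusted threshold. Antigen presentation genes had 4 of 11 above 0 and a median of -0.083 (-0.082 without the dim array). H2-Aa, a class II chain, read 10.50 and 10.56 in knockout-labelled testes, against 10.913 and 11.003 in wild-type-labelled testes (difference -0.43, SE 0.09), and its relative H2-Eb1 differed by -0.47 (SE 0.13). H2-Ab1, the third class II chain described, differed by 0.23 (0.13 without the dim array), and Tapbp, which loads peptides on class I, by 0.66 (SE 0.18). Interferon genes, 8 kept, had 6 above 0 with 0 at the unadjusted threshold.

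Stress lists had medians near 0. Oxidative stress genes had 15 of 26 above 0 and a median of 0.0027 (-0.0019 without the dim array), and the glutathione transferase Gsta3 read 15.25 and 15.18 in knockout-labelled testes, against 15.67 and 16.02 in wild-type-labelled testes (difference -0.63, SE 0.14, -0.46 without the dim array). Gstt1 differed by -0.92, and by -0.59 without the dim array, and the thioredoxin Txn1 by 0.40. Genes of endoplasmic reticulum stress had 8 of 17 above 0 (median -0.012, and -0.039 without the dim array), with Edem1, which extracts misfolded glycoproteins, at 0.39 and the chaperones Hsp90b1 and Dnajb9 at -0.27 and -0.25. Heat shock genes split 7 and 7, with 0 at the unadjusted threshold.

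**Figure D4:**
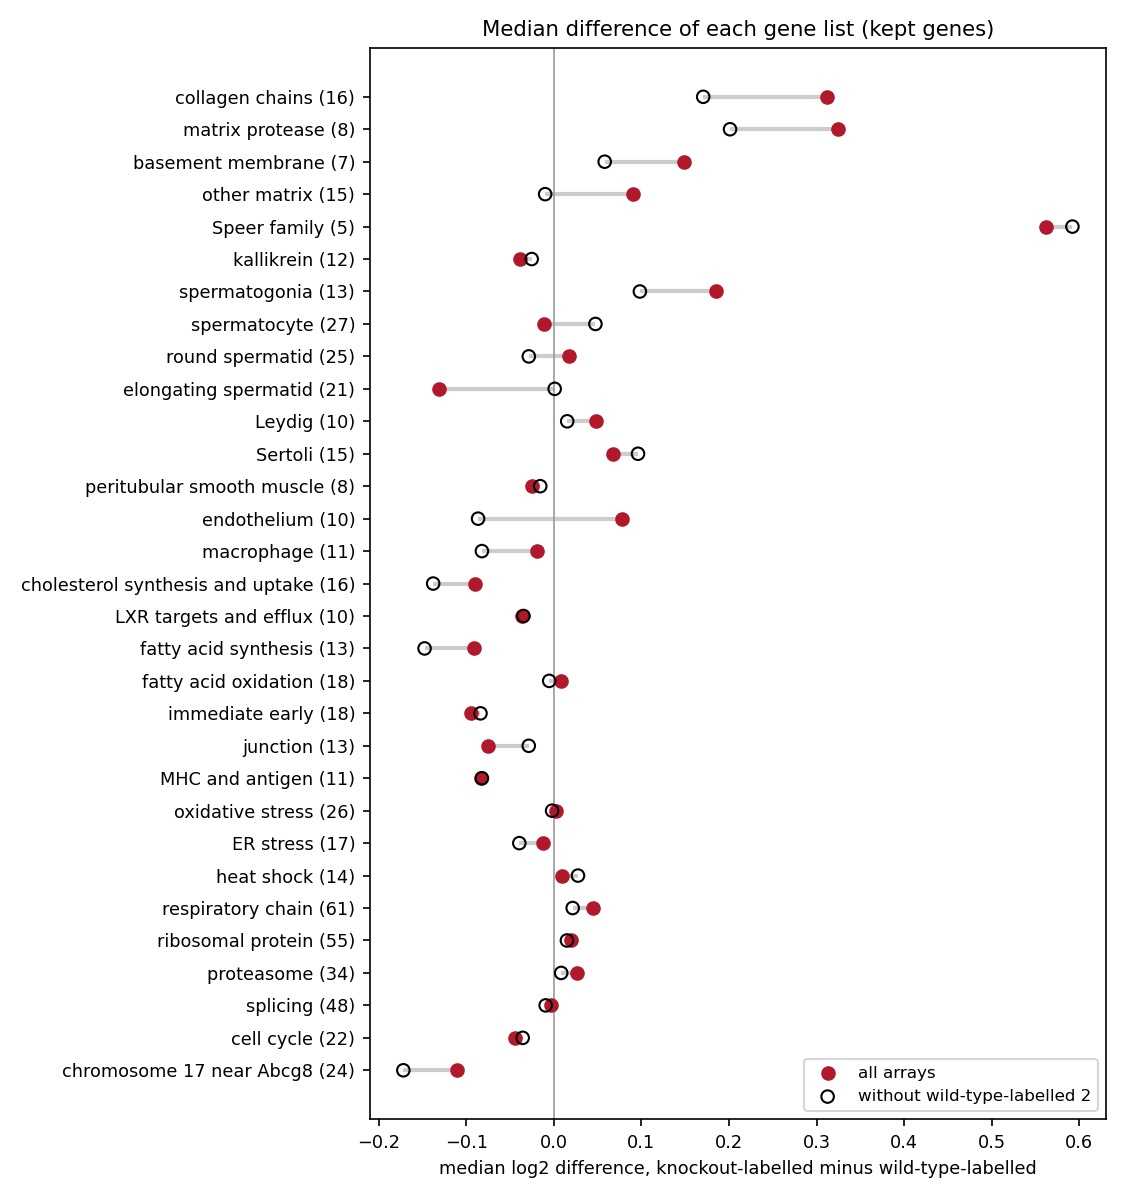
Each row is a gene list with its number of kept genes, and the horizontal axis is the median log2 difference of knockout-labelled minus wild-type-labelled testes. Filled circles use all arrays and open circles leave out wild-type replicate 2, with collagen chains at 0.31 and 0.17, the Speer family at 0.56 and 0.59 and elongating spermatids at -0.13 and 0.0011.

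Housekeeping groups lay close to 0. Respiratory chain genes had 36 of 61 above 0 with a median of 0.045, ribosomal protein genes 32 of 55 with 0.019, proteasome genes 20 of 34 with 0.026 and splicing genes 24 of 48 with -0.0029. Without the dim array these medians were 0.022, 0.015, 0.0085 and -0.0092 in the same order. The respiratory chain list had 0 members at the unadjusted threshold in either direction. The ribosomal list included Rpl3l, a striated muscle paralog of Rpl3, which was below detection on both wild-type-labelled arrays and at least 3.29-fold higher in knockout-labelled testes. Rpl3l was kept through the knockout-labelled arrays only, so the filter favoured a higher reading there. The splicing list included Srsf5 at 0.68 (0.38 without the dim array) and Hnrnph1 at -0.29, and the proteasome list the ATPase Psmc6 at 0.32. Under median scaling the median of the ribosomal list stood at -0.031 relative to all probes, so its small positive median depended on the scaling. Cell cycle genes had 10 of 22 above 0 and glycolysis genes 8 of 18, with Aldoc, an aldolase, at -0.60 (-0.41 without the dim array).

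Solute carriers had 68 of 138 above 0, with a median of -0.021 (-0.045 without the dim array). At the unadjusted threshold 7 were higher and 10 lower, or 12.3%, against 8.53% of all genes. Slc38a2, a transporter of small neutral amino acids, read 10.49 and 10.62 in knockout-labelled testes, against 10.02 and 9.71 in wild-type-labelled testes (difference 0.69, SE 0.17). Slc38a5, a glutamine transporter, differed by 0.42, and Slc10a6, a carrier of sulfated steroids, by 0.52. Slc25a36, a mitochondrial pyrimidine nucleotide carrier, was not detected in knockout-labelled testes and was at least 2.13-fold lower there. Its probe was kept through the wild-type-labelled arrays only, so the filter favoured that direction. Cytochrome P450 genes had 11 of 21 above 0, with Cyp2s1 below detection on both wild-type-labelled arrays, at least 2.20-fold higher in knockout-labelled testes, and Cyp4f14 at -0.58 (SE 0.14). Cyp2s1 was kept through the knockout-labelled arrays only, so the filter favoured a higher reading there.

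Olfactory receptor genes, which encode odorant receptors and are partly expressed in testis, depended on the filter. Of 738 on the array 85 were kept, 57 above 0 and 28 below, with a median of 0.14 (0.044 without the dim array). However, 34 of the 85 were kept through the knockout-labelled arrays only and 10 through the wild-type-labelled arrays only. Of the 41 detected on all 4 arrays 24 lay above 0, with a median of 0.026, and 1 higher and 3 lower members reached the unadjusted threshold. The 4 with the lowest p, Olfr700 (at least 2.48-fold), Olfr1404 (at least 2.77-fold), Olfr360 (at least 4.12-fold) and Olfr981 (at least 3.06-fold), were higher in knockout-labelled testes and below detection on both wild-type-labelled arrays, and their limma adjusted p was 0.134 to 0.325. Zinc finger genes, 132 kept, had 63 above 0 and a median of -0.014 (0.0063 without the dim array).

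Genes near Abcg8 on chromosome 17 had 9 of 24 above 0, with a median of -0.11 and 8 above 0 with a median of -0.17 without the dim array. An unadjusted p under 0.05 was reached by 3 higher members, Abcg8 included, and 4 lower ones. That is 29.2%, against 8.53% of all genes, and fewer members reached it without the dim array. After Abcg8 and Ston1, the lowest p belonged to Mcfd2, a cargo receptor partner for coagulation factors, which read 10.40 and 10.44 in knockout-labelled testes, against 11.19 and 11.55 in wild-type-labelled testes (difference -0.95, SE 0.25), and to Fshr.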

How the data were processed

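Whole-testis RNA of 6 mice was hybridised as digoxigenin-labelled cRNA, 1 array per mouse. The deposited table gives a raw signal per probe, an intensity on a linear scale, and a signal-to-noise score, per the file headers. No label or header names the scanner software. The authors' processed values of the same arrays, also intensity, served as an alternative. Here log2 raw signals were quantile-normalised and fitted over all 6 arrays in limma 3.58.1 (R 4.3.3), with Benjamini-Hochberg adjustment over the 15539 kept probes at 0.05. Nothing says which arrays share a batch. A gene with several probes (210 genes) was represented by 1. Of the array's 33012 probes, 14411 carried 1 symbol, 247 several and 18354 none. Named were Abcg8, Abcg5, called probes, the 12 genes with the lowest p in either direction that had a proper name (no clone names, no olfactory receptors), were detected on both arrays of the genotype with the higher signal, did not overlap between groups and kept their direction without wild-type replicate 2, and up to 4 members with the lowest p of a described list (all of lists of up to 8). The 53 lists and the members were chosen with earlier results of these data known. Settings tried were normalisation, background correction, filter, variance trend, array weights, robust fit, chow arrays only and leaving out each array.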

Additional observations from a re-analysis of the deposited data

How the results depend on the processing

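Over 15 settings Abcg8 kept its direction. It did not pass with the chow arrays alone (difference 3.88, limma adjusted p = 0.126) or without the signal-to-noise filter (3.88, limma adjusted p = 0.231), and leaving out 1 array in turn gave 3.71 to 4.04, with limma adjusted p from 0.0427 to 0.154. Probe 637213 ranged from -4.64 to -4.26 when 1 array was left out and passed in 1 such fit, without wild-type replicate 1 (limma adjusted p = 0.0489). The number of probes called was 2, against 0 with the chow arrays alone, 0 without the filter, 33 with an intensity trend in the variance, and 0 to 12 when 1 array was left out. The 12 arose without wild-type replicate 1, and there were 0 without wild-type replicate 2. When 1 array remained in an arm, it was assumed to vary like the others. With the chow arrays alone 683 probes were higher and 552 lower at an unadjusted limma p under 0.05, without the filter 1085 and 1120, and without wild-type replicate 2 553 and 384. Speer3 turned to 0.010 under median scaling and 0.011 with the authors' processed values, Speer4f1 ranged from -0.049 without wild-type replicate 1 to 0.321 without wild-type replicate 2, and Rabep2 from -0.045 without knockout replicate 2 to 2.56 without knockout replicate 1; the cause was not tested. No paired analysis was possible because the labels number no shared animals, litters or days across the groups. Signal over background limits the 1566 probes kept through knockout-labelled arrays only and the 645 kept through wild-type-labelled arrays only.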

Other observations

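Some genes read high or low on a single array. Wdr77, a partner of an arginine methyltransferase, read 10.14 and 16.05 in knockout-labelled testes, against 9.74 and 9.56 in wild-type-labelled testes. Hunk, a kinase gene, read 12.85 and 17.57 in the wild-type-labelled pair, and Terf2, a telomere-binding factor, 11.30 and 13.56. Among the 7052 genes detected on all 4 chow arrays, 2 genes in knockout-labelled testes and 4 in wild-type-labelled testes had arrays at least 2 log2 units apart. These genes were chosen after their values were seen.

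A second probe of Slc25a37 (505312) read 10.53 and 10.71 in knockout-labelled testes, against 13.11 and 12.84 in wild-type-labelled testes (difference -2.36, limma adjusted p = 0.134), while the probe that represents the gene differed by -0.22. When the test was limited to the 13328 probes detected on all 4 arrays, this probe and Ston1 passed beside Abcg8, with limma adjusted p of 0.0339 and 0.0344.

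Of the 7263 kept probes that name no gene, 401 were higher and 357 lower in knockout-labelled testes at an unadjusted limma p under 0.05, or 10.4% in all, against 8.53% of named genes.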
